A study of Mus musculus with 4 samples.

Results

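The genes of antigen presentation by the major histocompatibility complex (MHC) were examined in the regenerating mouse liver. The 10 genes were taken by symbol from 24421 in the deposited table: 6 of class I (H2-K1, H2-D1, B2m, Tap1, Tap2 and Tapbp) and 4 of class II (H2-Aa, H2-Ab1, H2-Eb1 and Cd74). All 10 were found and all 10 passed the filter on low values. Liver RNA came from 4 samples of mice after hepatectomy, the surgical removal of liver tissue. The control group (2 libraries, numbered 1 and 3 in the table) had received fibrin gel. The gelADSC group (2 libraries, numbered 2 and 3) had received the same gel with embedded ADSC, the usual abbreviation of adipose-derived stem cells. Hepatectomy and fibrin gel are thus common to both groups. Strain, age, sex, time after surgery and the origin of the ADSC were not stated. No label says that a group's samples are separate animals, and p-values then measure only how far these samples spread, which may be technical.

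MHC class I molecules show peptides from inside the cell to CD8 T cells and are found on nearly all nucleated cells, hepatocytes included. A heavy chain (H2-K1 or H2-D1) pairs with beta-2 microglobulin, the product of B2m. The TAP transporter (Tap1 with Tap2) moves peptides into the endoplasmic reticulum, where tapasin (Tapbp) helps to load them. Class II molecules, made of an alpha and a beta chain, show peptides from endocytosed protein to CD4 T cells and belong mainly to macrophages, dendritic cells and B cells. Their invariant chain, Cd74, fills the groove until peptide replaces it. Class I genes are controlled by promoter elements for NF-kappa B and interferon-regulated factors and by an SXY module read by NLRC5, and class II genes by an SXY module read by CIITA.

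The stretches before the transcription starts are printed because they hold matches to motifs of the elements named above. The interferon matches differ in form between B2m and the classical heavy chain genes H2-K1 and H2-D1. Sequences are from RefSeq on GRCm38.p6, whose strain is C57BL/6J. Of the 10 members 7 were in that promoter table, and Tap2, H2-Ab1 and Cd74 were not. H2-T23 and Erap1 are class I pathway genes outside the 10 and are shown because they rose. Within the 250 bases before the start, matches on either strand are in capitals. The motifs searched were a kappa B core (GGGNNTTCC), an interferon element written in 2 ways (GAANNGAAA and GAAANNGAA), the core of the X2 box (TGACG) and the Y box (CCAAT). The 2 forms of the interferon element can share letters, as can X2 cores on opposite strands. The kappa B core was searched at a fixed spacing only. In B2m the lower-case run gggaaagtccc holds, on the other strand, GGG and TTCC with a longer gap, and was not scored. The printed stretches lie at chr17:34000354-34000463 (minus strand) for H2-K1, chr17:35262918-35263050 (plus) for H2-D1, chr2:122147543-122147643 (plus) for B2m, chr17:36032744-36032829 (minus) for H2-T23, chr13:74639839-74639852 (plus) for Erap1, chr17:34287862-34287959 (minus) for H2-Aa and chr17:34305803-34305841 (plus) for H2-Eb1.
H2-K1: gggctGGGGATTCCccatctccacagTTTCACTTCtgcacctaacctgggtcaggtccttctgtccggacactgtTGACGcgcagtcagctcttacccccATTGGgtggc
H2-D1: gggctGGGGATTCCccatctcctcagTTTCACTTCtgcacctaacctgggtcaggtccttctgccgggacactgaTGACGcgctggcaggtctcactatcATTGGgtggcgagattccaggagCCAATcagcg
B2m: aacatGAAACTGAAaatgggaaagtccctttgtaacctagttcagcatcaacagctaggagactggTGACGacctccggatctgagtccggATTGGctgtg
H2-T23: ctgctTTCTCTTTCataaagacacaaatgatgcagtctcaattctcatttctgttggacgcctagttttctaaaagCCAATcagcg
Erap1: ccaccTTCACTTTC
H2-Aa: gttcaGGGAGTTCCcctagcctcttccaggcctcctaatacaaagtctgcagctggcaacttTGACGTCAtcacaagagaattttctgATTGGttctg
H2-Eb1: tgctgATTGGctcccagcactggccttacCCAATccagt

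H2-K1 and H2-D1 shared the kappa B core, GAANNGAAA, the X2 core and the Y box in the same order. Their longest run of identical bases, 47, held the kappa B core but not GAANNGAAA. GAAANNGAA was present in B2m, H2-T23 and Erap1 and was not matched in H2-K1 or H2-D1. GAANNGAAA was present in H2-K1, H2-D1, H2-Q4 and H2-Q10 and was not matched in B2m, H2-T23 or Erap1. H2-Aa held the X2 core on both strands over shared letters, a Y box and a kappa B core. No interferon element of either form was matched in Tap1, Tapbp, H2-Aa or H2-Eb1. Among 27025 promoters of the same length the kappa B core was in 4.88%, GAANNGAAA in 6.34%, GAAANNGAA in 7.16%, the X2 core in 17.9% and the Y box in 34.5%. The motifs, both interferon forms among them, were chosen with the sequences and the results known. H2-T23 and Erap1 were shown because they rose. The split of the forms between these genes and the heavy chain genes was thus open to selection, and a link to the changes was not tested. A match is a run of letters, not a measured binding site.

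Values are FPKM (fragment counts divided by the length of the gene and the size of the library), so that levels can be set side by side between genes. Changes given in times are ratios of the group means of FPKM. Log2 changes are differences of mean log2(FPKM + 1), gelADSC minus control, with their standard error. They were tested with limma, two-sided, over the 11070 genes whose mean reached 1 FPKM, with Benjamini-Hochberg adjustment and a threshold of 0.05. The libraries held roughly 18100000 to 24400000 reads, inferred from the steps of low values. The hepatocyte marker Alb (serum albumin) read between 22023 and 38330 FPKM, with overlapping groups. Of 6 hepatocyte markers 0 were called, but 3 (Ttr, Serpina1a and Cps1) were higher and 2 (Apoa1 and Fgb) lower in gelADSC without overlap. Of all tested genes 19.2% were higher and 50.5% lower without overlap. Over all tested genes the median log2 change was -0.25, and 6.92% were called higher and 17.5% lower, 24.4% in all. List medians and the change of B2m are also given relative to that median.

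Of the class I members 1 of 6 was called, B2m, which rose by 1.70 times while neither classical heavy chain gene passed the test. Of the class II members 0 of 4 were called by limma, and 0 had an unadjusted p under 0.05. The 1 of 10 members called stands beside 24.4% of all tested genes. The median log2 change was -0.31 for class I and -0.08 for class II, which is -0.06 and 0.17 relative to all genes.

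**Figure D1:**
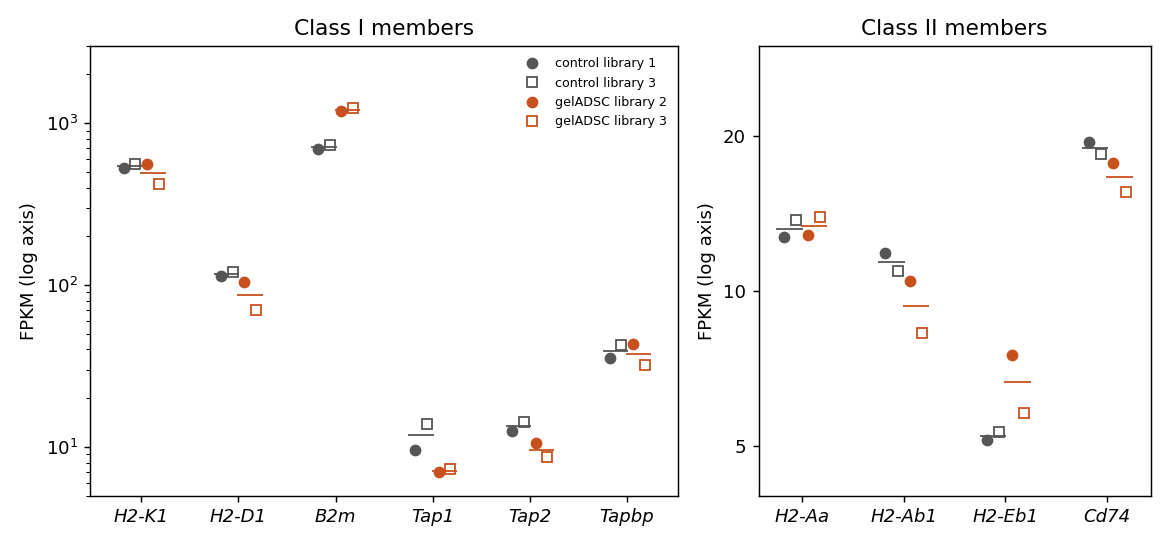
FPKM of the 6 class I members (left) and 4 class II members (right) on log axes, with 1 symbol per library and a bar at the mean of each group. Both gelADSC libraries lie above both controls for B2m (1185 and 1237 against 696 and 732 FPKM) and, by less, for H2-Eb1, and the class II members lie between 5.14 and 19.5 FPKM in every library.

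Among B2m and the 2 heavy chain members, B2m was the most abundant, followed by H2-K1 and then H2-D1, in every library. B2m read 696 and 732 FPKM in control libraries 1 and 3 and 1185 and 1237 FPKM in gelADSC libraries 2 and 3. The groups did not overlap, and the libraries of a group differed by far less than the groups. B2m rose from 714 ± 25.6 to 1211 ± 37.0 FPKM (SD, n = 2 each), a log2 change of 0.76 (SE 0.21, limma adjusted p = 0.0319, 1.01 relative to all genes). The call rested on all 4 libraries. Without control library 1 the adjusted p was 0.163, without control library 3 it was 0.0782, without gelADSC library 2 it was 0.0653 and without gelADSC library 3 it was 0.0912, at log2 changes of 0.73 to 0.80. In limma it was also lost with quantile normalization (adjusted p = 0.0579) and with no filter (0.108).

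H2-K1, the K heavy chain, read 530.4 and 563 FPKM in control libraries against 557 and 422 FPKM in gelADSC libraries 2 and 3. The groups overlapped, with gelADSC library 3 the lowest. The means were 547 ± 23.4 and 489 ± 95.4 FPKM (SD, n = 2 each), and the log2 change of -0.17 had a 95% interval from -0.68 to 0.33 (limma adjusted p = 0.591). H2-D1, the D heavy chain, read 114 and 119.8 FPKM in control libraries against 104 and 69.7 FPKM with gelADSC. Both gelADSC libraries were below both controls, but they differed more from each other than library 2 differed from the controls. Its means were 117 ± 4.27 and 86.8 ± 24.2 FPKM (SD, n = 2 each), with a log2 change of -0.45 (interval -0.97 to 0.07, limma adjusted p = 0.176). The direction of H2-K1 turned with median ratio scaling (0.12) and without gelADSC library 3 (0.03). H2 genes include near-identical copies, so reads shared between heavy chain genes could be counted to any of them, and the alleles of another strain could be counted less fully.

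The light chain and the heavy chains thus stood in a different ratio in the groups. B2m over the sum of H2-K1 and H2-D1 was 1.08 and 1.07 in the controls and 1.79 and 2.52 in gelADSC libraries 2 and 3. This ratio is formed within a library and does not depend on scaling between libraries. With H2-Q10 added to the heavy chains it was 0.411 and 0.355 in the controls and 0.690 and 0.769 in gelADSC. H2-K1 over H2-D1 was 4.66 and 4.70 in the controls and 5.35 and 6.05 in gelADSC. With 2 libraries against 2 an exact permutation test of such a ratio cannot go below a two-sided p of 0.333, so none is given.

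**Figure D2:**
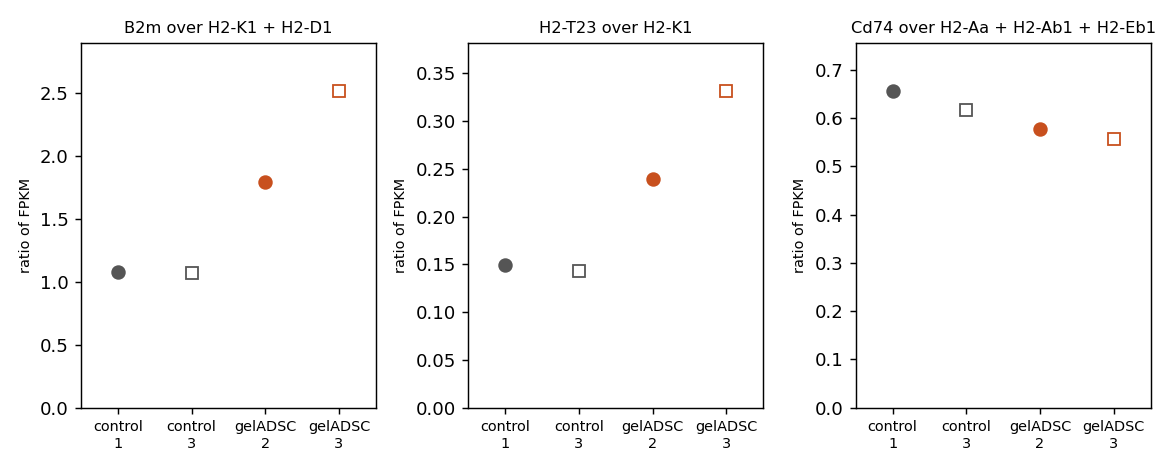
Ratios of FPKM formed within each library, 1 point per library, on axes that start at 0: B2m over H2-K1 + H2-D1, H2-T23 over H2-K1, and Cd74 over the 3 class II chains. The first goes from 1.08 and 1.07 in the controls to 1.79 and 2.52 in gelADSC, and the last lies between 0.557 and 0.656.

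The members for peptide transport and loading, Tap1, Tap2 and Tapbp, were not called in either direction. Tap1, a TAP subunit, read 9.63 and 13.9 FPKM in control libraries against 6.96 and 7.28 FPKM with gelADSC. Both gelADSC libraries were lower than both controls, and the control libraries differed from each other by 0.49 on the log2 scale. The log2 change was -0.63 (SE 0.22, limma adjusted p = 0.0709). Tap2, the partner subunit, read 12.5 and 14.3 FPKM in control libraries against 10.6 and 8.67 FPKM with gelADSC, again without overlap (log2 change -0.44, SE 0.20, limma adjusted p = 0.143). Tapbp, which encodes tapasin, read 35.5 and 42.7 FPKM in control libraries against 43.3 and 32.2 FPKM with gelADSC, with overlapping groups (log2 change -0.06, limma adjusted p = 0.866). Its direction turned under both other scalings, median ratio and quantile (0.23 in each), and without control library 3 (0.07) or gelADSC library 3 (0.15). Of the 6 class I members 3 were lower in gelADSC without overlap and 1 was higher, where 50.5% and 19.2% of all tested genes were.

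The class II members were low, and none of the 4 was called. In bulk tissue fewer cells of a type and less RNA per cell cannot be told apart. H2-Aa, the alpha chain of I-A, read 12.7 and 13.7 FPKM in control libraries against 12.9 and 13.9 FPKM with gelADSC. The groups overlapped, and the log2 change of 0.02 had an interval from -0.41 to 0.45 (limma adjusted p = 0.954). H2-Ab1, its beta chain, read 11.9 and 10.9 FPKM in control libraries against 10.4 and 8.28 FPKM with gelADSC, lower in both (log2 change -0.27, interval -0.73 to 0.20, limma adjusted p = 0.360). H2-Eb1, the beta chain of I-E, read 5.14 and 5.33 FPKM in control libraries against 7.51 and 5.80 FPKM with gelADSC. It was the class II member that was higher in both gelADSC libraries (log2 change 0.29, interval -0.19 to 0.77, limma adjusted p = 0.338). Cd74, the invariant chain, read 19.5 and 18.5 FPKM in control libraries against 17.8 and 15.6 FPKM with gelADSC, lower in both (log2 change -0.18, interval -0.61 to 0.25, limma adjusted p = 0.508).

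The sum of the 3 class II chains was 29.7 and 29.99 FPKM in control libraries against 30.8 and 28.0 FPKM with gelADSC. Cd74 over that sum was 0.656 and 0.617 in the controls and 0.577 and 0.557 in gelADSC. The sum of H2-K1 and H2-D1 was between 17.5 and 22.8 times the class II sum. With median ratio scaling, which removes the shift of all genes, the directions of H2-Ab1 and Cd74 turned (0.0024 and 0.10), as they did with quantile normalization (0.015 and 0.15). That of H2-Aa turned without control library 1 (-0.03) or gelADSC library 3 (-0.04). Between the gelADSC libraries, 3 of the 4 class II and 4 of the 6 class I members were lower in library 3. The median log2 difference of all tested genes, library 3 minus library 2, was 0.10.

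**Figure D3:**
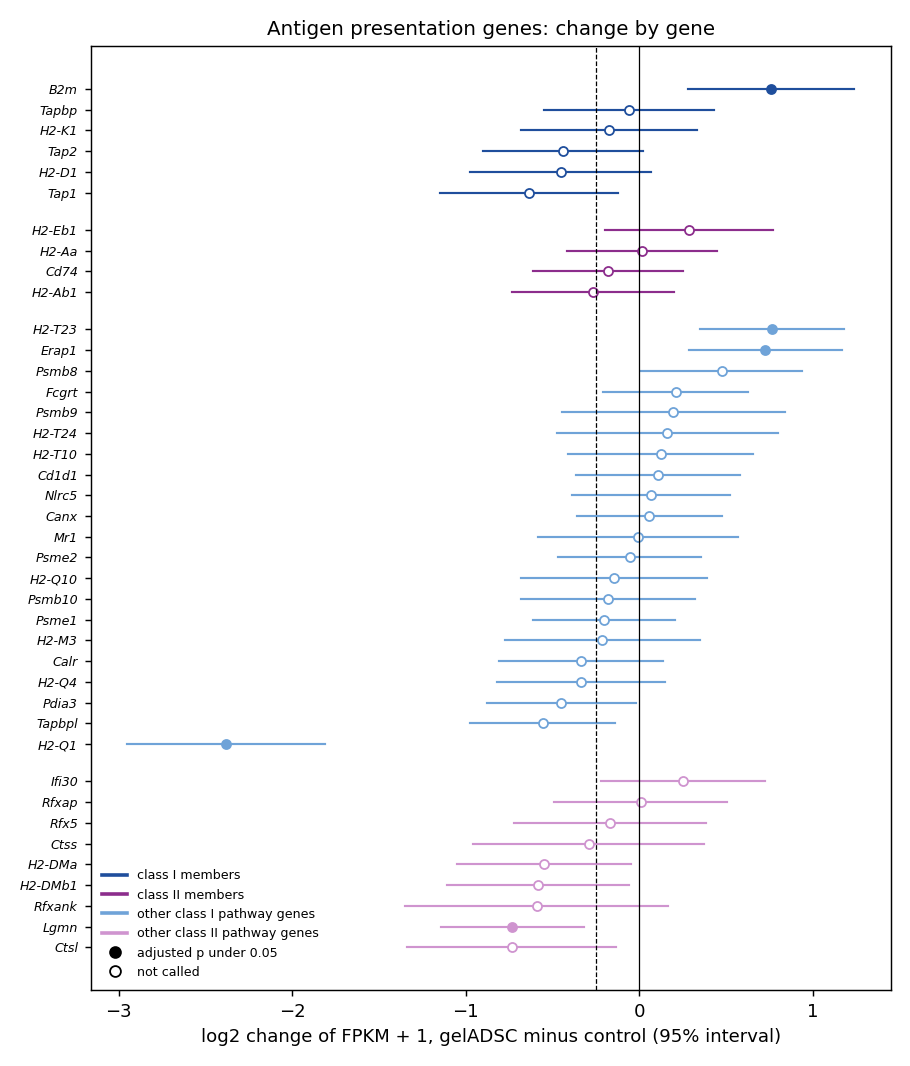
Log2 change of FPKM + 1, gelADSC minus control, with 95% intervals, for the members and the other tested genes of both pathways. Filled points are called at an adjusted p under 0.05, the solid line is at 0 and the dashed line at the median of all tested genes (-0.25). B2m, H2-T23 and Erap1 lie together between 0.73 and 0.77, and H2-Q1 lies alone at -2.38.

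Other class I genes were read from a list of 28, of which 21 were tested. Of these 2 rose and 1 fell, where 6.92% and 17.5% of all tested genes did. The median log2 change was -0.01, or 0.24 above that of all genes. H2-T23 encodes the heavy chain of Qa-1, a nonclassical class I molecule recognised by NKG2 receptors of natural killer cells. It read 79.1 and 80.6 FPKM in control libraries against 133 and 139.9 FPKM with gelADSC, with no overlap. It rose by 1.71 times (log2 change 0.77, SE 0.18, limma adjusted p = 0.0192). Erap1, which trims peptides in the endoplasmic reticulum, read 11.4 and 13.5 FPKM in control libraries against 20.5 and 21.9 FPKM with gelADSC, and rose by 1.70 times (log2 change 0.73, SE 0.19, limma adjusted p = 0.0287). In mean FPKM B2m, H2-T23 and Erap1 thus rose by 1.70 to 1.71 times, at log2 changes of 0.73 to 0.77. H2-T23 over H2-K1 was 0.149 and 0.143 in the controls and 0.239 and 0.332 in gelADSC. Without single libraries the adjusted p of H2-T23 was 0.104 (control library 1), 0.0529 (control library 3), 0.0545 (gelADSC library 2) and 0.0777 (gelADSC library 3). Erap1 gave 0.141 without control library 1, 0.101 without gelADSC library 2, 0.145 without gelADSC library 3 and 0.0626 with no filter.

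H2-Q1, a class Ib gene of the Q region, fell. It read 44.0 and 28.6 FPKM in control libraries against 6.84 and 5.25 FPKM with gelADSC. The gelADSC libraries lay far below both controls, with a control mean 6.01 times the gelADSC mean (log2 change -2.38, SE 0.25, limma adjusted p = 0.000587). H2-Q1 was called in each of 12 alternative fits, with log2 changes from -2.69 to -1.88. Of 5 bile duct cell markers 2 also fell, where 17.5% of all tested genes did. These were Spp1 (149.6 and 298 FPKM against 52.1 and 43.5 FPKM) and Sox9 (11.8 and 9.48 FPKM against 2.02 and 1.52 FPKM). A fall was not particular to this list, since 1 of 12 macrophage markers, Cd68, was also called lower. Krt19 was lower in both gelADSC libraries without being called, and Krt7 and Epcam overlapped. The summed FPKM of the 5 was 169.8 and 311 in the controls and 57.7 and 49.5 with gelADSC, most of it Spp1, and their part in the result was not tested. H2-Q10, which encodes a soluble class I heavy chain made by the liver, read 1048 and 1377 FPKM in control libraries against 1056 and 1117 FPKM with gelADSC, above H2-K1 in every library. Its groups overlapped (log2 change -0.15, limma adjusted p = 0.676). H2-Q4, the gene of a further Q region molecule, read between 19.5 and 30.9 FPKM and was lower in both gelADSC libraries (log2 change -0.34, limma adjusted p = 0.266).

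Of 43 symbols that start with H2-, 17 were tested, 14 were listed at 0 in all 4 libraries and 12 were above 0 without passing the filter. H2-Q6, H2-Q8, H2-Q9, H2-L and H2-T3 were among those at 0, and H2-Q7 read 0.0360 FPKM in control library 3 and 0 in the others. These Q genes are near-identical copies of one another, and a 0 may mean that reads could not be assigned. The remaining tested H2 genes were H2-M3, H2-T10, H2-T24, H2-Q5, H2-K2, H2-DMa, H2-DMb1 and H2-Ke6, the last a metabolic enzyme gene within the region and no MHC gene. None of these was called. H2-K2 read 7.47 and 5.84 FPKM in control libraries against 6.50 and 2.47 FPKM with gelADSC, and was called lower when gelADSC library 2 was left out (limma adjusted p = 0.0121).

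The immunoproteasome subunits, which cut peptides for class I, did not pass the test. Psmb8 read 12.1 and 15.4 FPKM in control libraries against 20.5 and 18.4 FPKM with gelADSC, higher in both (log2 change 0.48, limma adjusted p = 0.117). Psmb9, whose gene lies beside Tap1 and shares its promoter region, read 8.96 and 16.9 FPKM in control libraries against 15.4 and 13.4 FPKM with gelADSC. The control libraries enclosed both gelADSC libraries (log2 change 0.20, limma adjusted p = 0.633). Tapbpl, a tapasin-related peptide editor, read 19.8 and 20.03 FPKM in control libraries against 13.2 and 13.3 FPKM with gelADSC. The libraries of each group were nearly equal, and the log2 change of -0.55 gave a limma adjusted p of 0.0578, which passed (0.0416) with a filter at a mean of 5 FPKM. The chaperone genes Calr and Pdia3 were lower in both gelADSC libraries without being called (log2 changes -0.33 and -0.45). Nlrc5, the transactivator of class I genes, read 4.52 and 4.66 FPKM in control libraries against 4.89 and 4.85 FPKM with gelADSC (log2 change 0.07, interval -0.38 to 0.52, limma adjusted p = 0.821).

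Of 21 other class II pathway genes 19 were in the table and 9 were tested. Of these 0 rose and 1 fell, where 6.92% and 17.5% of all tested genes did. The median log2 change was -0.55 (-0.30 against all genes). Of the 9 tested genes 4 were lower in gelADSC without overlap, where 50.5% of all tested genes were. Ctss, Ifi30, Rfx5, Rfxap and Rfxank overlapped. Lgmn, the lysosomal protease legumain, fell from 102 and 96.9 FPKM in control libraries to 60.6 and 58.5 FPKM with gelADSC (log2 change -0.73, SE 0.18, limma adjusted p = 0.0226). Its call did not hold under median ratio scaling (0.103) or quantile normalization (0.0581), nor without control library 1 (0.113), control library 3 (0.0517), gelADSC library 2 (0.0761) or gelADSC library 3 (0.0925). Without 1 library its log2 change was -0.77 to -0.69, near the -0.73 of all 4. H2-DMa and H2-DMb1, the chains of the H2-M molecule that exchanges the Cd74 remnant for peptide, were lower in both gelADSC libraries. H2-DMa read 2.12 and 2.36 FPKM against 1.33 and 1.11 FPKM (log2 change -0.55, limma adjusted p = 0.0999), and H2-DMb1 3.05 and 3.83 FPKM against 1.66 and 2.28 FPKM (-0.58, limma adjusted p = 0.0949). Ctsl, the protease cathepsin L, read 749 and 514 FPKM in control libraries against 439.6 and 316 FPKM with gelADSC (log2 change -0.73, limma adjusted p = 0.0739). It was called lower when gelADSC library 2 was left out (limma adjusted p = 0.0143).

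Of 9 genes of this list that were above 0 but below the filter, 5 were higher in both gelADSC libraries and 4 (March1, Cd80, Cd86 and Cd40) overlapped. Over all 6493 genes above 0 and below the filter, 22.3% were higher without overlap and 19.1% lower. H2-DMb2, a further beta chain of H2-M, read 0.255 and 0.281 FPKM in control libraries against 0.521 and 0.631 FPKM with gelADSC. H2-Oa and H2-Ob encode H2-O, an inhibitor of H2-M found mainly in B cells. H2-Ob read 0.0188 and 0.0827 FPKM in control libraries against 0.230 and 0.204 FPKM with gelADSC, and H2-Oa 0.0478 and 0.105 FPKM against 0.156 and 0.331 FPKM. Ciita, the class II transactivator, read 0.126 and 0.249 FPKM in control libraries against 0.321 and 0.257 FPKM with gelADSC. The fifth, H2-Eb2, a class II beta chain gene, was at 0 in both control libraries and read 0.0727 and 0.0441 FPKM with gelADSC. The gap between the groups was small for Ciita. A read in a gene of 1 kb was worth 0.0410 to 0.0552 FPKM, so that these values rest on few reads. Without a filter limma called 0 of these 9 genes, with a lowest adjusted p of 0.0740, where it called 7.15% of 17563 genes. H2-Ea-ps, the inactive alpha chain gene of I-E in the reference strain, was listed at 0 in all libraries.

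**Figure D4:**
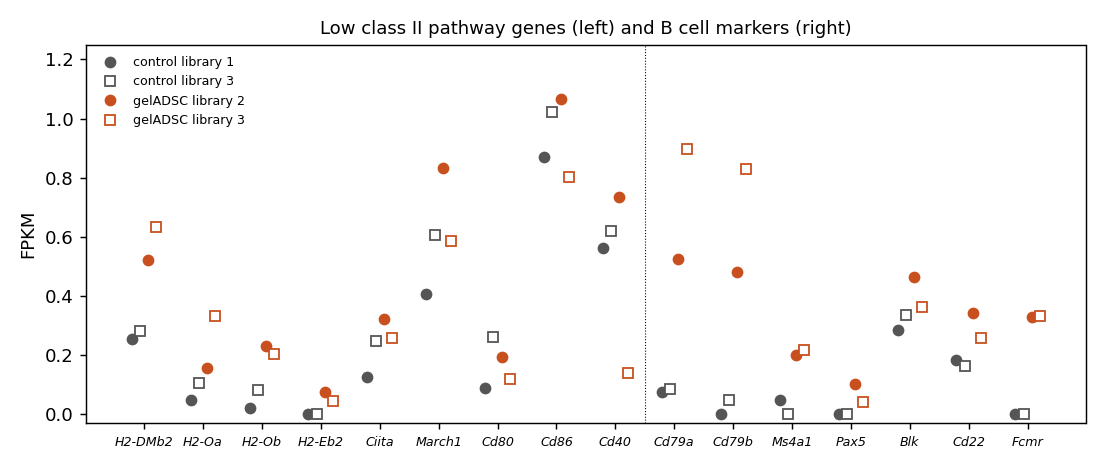
FPKM of class II pathway genes below the filter (left of the dotted line) and of B cell markers (right), 1 symbol per library. The groups overlap for March1, Cd80, Cd86 and Cd40, and both gelADSC libraries lie above both controls for the other genes shown, of which H2-Eb2, Pax5 and Fcmr are at 0 in both controls.

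Markers of the cells that carry MHC were read beside these values, and their part in them was not tested. All 8 B cell markers were higher in both gelADSC libraries than in both controls. Over all genes above 0 and below the filter 22.3% were. The sum of the B cell markers was 0.610 and 0.649 FPKM in control libraries against 2.73 and 3.26 FPKM with gelADSC. Pax5 and Fcmr were at 0 in both controls. Without a filter 4 of the 8 B cell markers were called higher by limma, against 2.99% of all 17563 genes in that fit and 1.93% of those below the filter, among them Fcmr (adjusted p = 0.0184) and Cd79b (adjusted p = 0.0404). Of 9 T and NK cell markers measured, 8 were higher in both gelADSC libraries, beside the same 22.3%, and 5 were at 0 in both controls. Their sums were 0.129 and 0.217 FPKM in control libraries against 1.72 and 1.77 FPKM with gelADSC. No value of theirs was above 0.0714 FPKM in the controls or 0.549 FPKM with gelADSC. A read in a gene of 1 kb was worth 0.0410 to 0.0552 FPKM, so these sums rest on few reads. None of the 9 T and NK cell markers was called by limma without a filter (lowest adjusted p = 0.0693). The class II sum beside these markers was 29.7 and 29.99 FPKM against 30.8 and 28.0 FPKM.

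The 12 Kupffer cell and macrophage markers summed to 504 and 547 FPKM in control libraries against 608 and 331 FPKM in gelADSC libraries 2 and 3. Most of the difference between the gelADSC libraries was Marco (130 and 29.8 FPKM) and Lyz2 (165 and 43.9 FPKM). In library 3, 10 of the 12 were lower than in library 2, and Clec4f and Vsig4 were higher. Of the 12, 1 was called, where 24.4% of all tested genes were. This was Cd68, which fell from 99.5 and 62.3 FPKM to 16.6 and 11.7 FPKM (limma adjusted p = 0.000756). Without overlap, 50.5% of all tested genes were lower and 19.2% higher in gelADSC. Vsig4 was also lower in both gelADSC libraries, Adgre1 and Cd5l were higher in both (log2 changes 0.97 and 0.60, limma adjusted p = 0.0920 and 0.0886), and the other 8, C1qa, C1qb and C1qc among them, overlapped. The 7 monocyte and neutrophil markers in the table summed to 98.9 and 100.1 FPKM in control libraries against 109 and 41.1 FPKM with gelADSC, and 5 general leukocyte markers to 35.0 and 40.04 FPKM and to 42.2 and 23.9 FPKM. Dendritic cell markers summed to between 3.34 and 4.10 FPKM. Of these 9 markers 6 were higher in both gelADSC libraries and 2, Clec9a and Batf3, lower in both. All but Zbtb46 were below the filter, where 22.3% of genes above 0 were higher without overlap and 19.1% lower. All 5 leukocyte and all 7 monocyte and neutrophil markers were lower in gelADSC library 3 than in library 2. Over all tested genes the median log2 difference, library 3 minus library 2, was 0.10. H2-K1, H2-D1, Tap2, Tapbp, H2-Ab1, H2-Eb1 and Cd74 were also lower in gelADSC library 3, while B2m, Tap1 and H2-Aa were not.

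**Figure D5:**
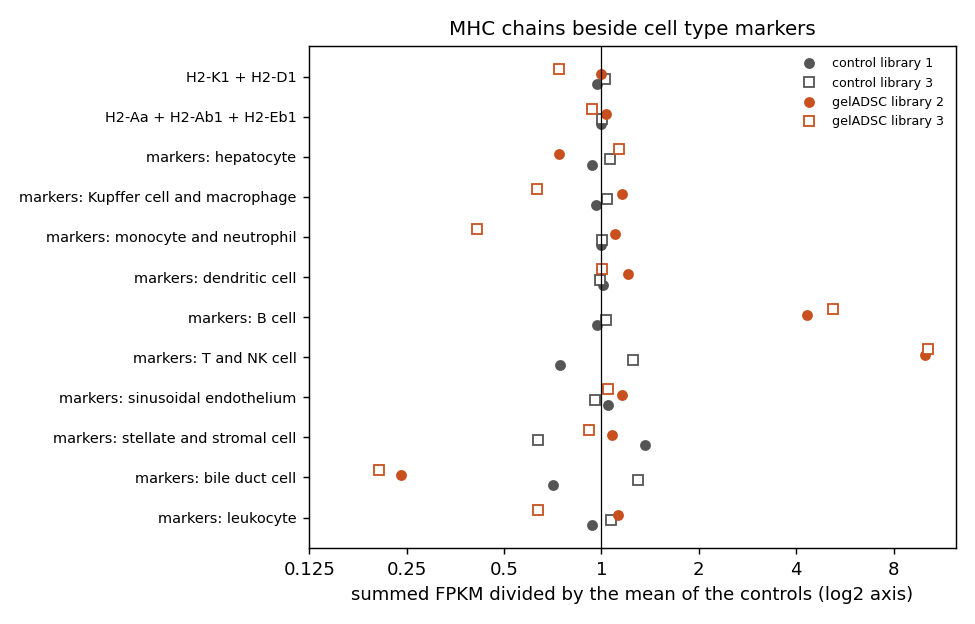
Summed FPKM of the heavy chains, the class II chains and 10 lists of cell type markers, each divided by its mean in the controls, on a log2 axis with 1 symbol per library. The class II sum stays near 1 in all 4 libraries, the B cell and the T and NK cell sums are higher in both gelADSC libraries, and the leukocyte sum is lowest in gelADSC library 3.

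Interferon gamma is the main inducer of MHC genes, and its own transcript, Ifng, was listed at 0 in all 4 libraries. Of 16 genes of its signalling 14 were tested, 0 rose and 2 fell, where 6.92% and 17.5% of all tested genes did. Their median log2 change was -0.42 (-0.18 relative to all genes). Across the alternatives 0 to 1 rose and 0 to 5 fell, with 5 lower when gelADSC library 2 was left out. Cxcl9, an interferon-induced chemokine, read 0.225 and 0.760 FPKM in control libraries against 6.81 and 1.196 FPKM with gelADSC, higher in both (log2 change 1.496, limma adjusted p = 0.0648). Ifngr1, a chain of the receptor, read 35.6 and 20.3 FPKM in control libraries against 14.2 and 13.1 FPKM with gelADSC (log2 change -0.93, SE 0.26, limma adjusted p = 0.0360). Gbp2, an interferon-induced GTPase, read 5.54 and 7.22 FPKM in control libraries against 3.17 and 2.04 FPKM with gelADSC (log2 change -1.04, SE 0.24, limma adjusted p = 0.0182). Neither call held under median ratio scaling (0.106 and 0.109) or quantile normalization (0.134 and 0.1004), with no filter (0.116 and 0.0839) or without control library 1 (0.177 and 0.0836). That of Gbp2 was also lost without control library 3 (0.0866) or gelADSC library 3 (0.0944). Irf1, a transcription factor of the pathway and an activator of class I genes, read 16.4 and 15.1 FPKM in control libraries against 13.5 and 7.53 FPKM with gelADSC (log2 change -0.59, limma adjusted p = 0.135).

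The genes whose profile over the 4 libraries was nearest to the mean of the class I members, by Euclidean distance of centred log2(FPKM + 1), were AF251705, Dsc2, Crygn, Tmc8 and Cep63, at distances of 0.023 to 0.058. B2m itself lay at 0.96 from that mean and H2-K1 at 0.13, so the mean profile describes B2m poorly. Among the nearest to the class II mean were Man2b2, Rassf5, Fbxo33 and BC023829, at 0.031 to 0.051, with the members themselves at 0.15 to 0.34. With 4 libraries such a likeness is a description.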

How the data were processed

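The deposited values were taken as FPKM made by the authors, since Cufflinks 2.2.1 is named in the submitters' processing notes and the header gives no unit. Trimmomatic 0.38 and TopHat2 2.1.1 are named there too, per the submitters' processing notes, as is the human build hg19, although the symbols are mouse. The kit keeps strand per the labels' protocols, but no counting step is stated. Columns number the libraries 1 and 3 (control) and 2 and 3 (gelADSC), unlike the sample titles, and were assigned by group only.

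Values were used without further scaling as log2(FPKM + 1), which understates the change of low genes. Genes averaging 1 FPKM or more were tested with limma 3.58.1 (R 4.3.3) with a mean-variance trend and Benjamini-Hochberg adjustment over all 11070. The procedure was tested on simulated data, with changes larger than those of B2m, H2-T23 and Erap1 and no shift over all genes. That simulation cannot show how well changes of their size are called. Depth was inferred from the steps of low values and is approximate.

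The members, gene lists and motifs were chosen with earlier results of these data known. Genes named were the members, called genes of each list, tested symbols starting with H2-, the transactivators Nlrc5 and Ciita, and the 5 nearest profiles, of which 1 is not reported here, nor are some list genes. The other pathway genes and markers named, such as Tapbpl and Ctsl, were chosen after their values were seen. Alternatives were pseudocounts of 0.1 and 5, no filter, a mean of at least 5, median ratio scaling, quantile normalization, limma without a trend or with robust moderation, and leaving out each library. Of 154 list genes 4 were missing from the table. Promoter letters are from RefSeq (GRCm38.p6).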

Additional observations from a re-analysis of the deposited data

How the results depend on the processing

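No paired analysis was possible because the columns' numbers cannot be matched to the replicate numbers of the sample titles. Over all genes limma called 2702, but 1255 with no filter, and 634 to 2260 when 1 library was left out, with 634 without control library 1. The share called higher was 28.3%, against 50.1% (median ratio scaling) and 48.2% (quantile normalization). The class I members had 1 call, and 0 with no filter, with quantile normalization and without any 1 library (0 to 0). The class II members had 0 calls in each of 12 alternatives. The other class I genes had 3 calls and 1 to 2 without 1 library, and the other class II genes 1 call, 0 with either scaling and 0 to 1 without 1 library. The cause was not tested. With median ratio scaling the log2 change turned for H2-K1 (0.12), Tapbp (0.23), H2-Ab1 (0.0024), Cd74 (0.10) and H2-Q10 (0.15), and with quantile normalization for Tapbp (0.23), H2-Ab1 (0.015) and Cd74 (0.15). Leaving out 1 library gave ranges across 0 for H2-K1 (-0.37 to 0.026), Tapbp (-0.27 to 0.15), H2-Aa (-0.035 to 0.070), H2-T10 (-0.037 to 0.29), H2-T24 (-0.18 to 0.50), H2-Q10 (-0.34 to 0.051) and H2-M3 (-0.46 to 0.038). With 2 libraries a group, a lone library was assumed to vary like the other group.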
